A study of Mus musculus with 5 samples.

Results

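The small leucine-rich proteoglycans are secreted proteins of connective tissue. The 8 genes described here are Dcn, Bgn, Lum, Fmod, Ogn, Aspn, Prelp and Podn, chosen by name as members of this family, and all 8 were found among the 14454 gene symbols of the deposited tables. RNA was sequenced in 5 lines derived from NIH/3T3 cells, immortalised fibroblasts of mouse embryos. In 4 lines, numbered 3, 6, 15 and 18, a human histone H2A with the T120D substitution, fused to EGFP, had been integrated. In 1 line, wt, the integrated EGFP fusion carried wild-type human H2A. All 5 lines kept the histone genes of the mouse cells and grew in the same medium, DMEM with 10% fetal calf serum and 10 µg/ml gentamicin. The promoter of the transgene, and whether the lines were separate clones or cultures, are not stated in the labels. The substitution puts an aspartate, often used to mimic a phosphorylated residue, in place of a threonine. The comparison asks how expression in the T120D lines differed from that in the wt line.

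Small leucine-rich proteoglycans share a core of leucine-rich repeats that folds into a curved solenoid. Most bind fibrillar collagen and affect the diameter and spacing of its fibrils, and several bind growth factors of the TGF-beta family or act on cell-surface receptors. Decorin (Dcn), biglycan (Bgn) and asporin (Aspn) are close relatives. Decorin and biglycan carry chondroitin or dermatan sulfate chains, whereas asporin carries an aspartate-rich stretch in place of the chains. Lumican (Lum), fibromodulin (Fmod) and PRELP (Prelp) form another class, in which lumican and fibromodulin can carry keratan sulfate. Osteoglycin (Ogn, also named mimecan) and podocan (Podn) belong to classes of their own. Decorin is a major matrix product of fibroblasts, and it binds TGF-beta and several receptor tyrosine kinases.

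Several of the genes lie side by side in the mouse genome, in clusters thought to have arisen by duplication. Dcn and Lum are on chromosome 10, Prelp and Fmod on chromosome 1 next to Optc, and Aspn and Ogn on chromosome 13 together with Ecm2 and Omd. Bgn is on chromosome X and Podn on chromosome 4. The promoter windows of 4 members are printed because these genes represent the most abundant member (Bgn), a pair from 1 cluster (Ogn and Aspn) and the gene whose levels by line resembled those of Dcn (Prelp). Each window holds 250 bases before and 50 bases after the annotated start and is read from 5′ to 3′ on the strand of the gene, from RefSeq on build GRCm38.p6, which is not the build of the deposited values. For Bgn and Ogn, the first bases after this start were not found near the start of any transcript of the gene in a second annotation, GENCODE. The starts used for Bgn and Ogn are therefore less certain than those of Aspn and Prelp. The windows are chrX:73483351-73483650 (plus strand) for Bgn, chr13:49607765-49608064 (plus strand) for Ogn, chr13:49544193-49544492 (plus strand) for Aspn and chr1:133921352-133921651 (minus strand) for Prelp. Capitals mark matches, on either strand, to 5 short motifs, namely TATAAA of the TATA box, GGGCGG of the GC box, CCAAT of the CCAAT box, TGANTCA of the AP-1 element and CATTCC of the TEAD element.
Bgn: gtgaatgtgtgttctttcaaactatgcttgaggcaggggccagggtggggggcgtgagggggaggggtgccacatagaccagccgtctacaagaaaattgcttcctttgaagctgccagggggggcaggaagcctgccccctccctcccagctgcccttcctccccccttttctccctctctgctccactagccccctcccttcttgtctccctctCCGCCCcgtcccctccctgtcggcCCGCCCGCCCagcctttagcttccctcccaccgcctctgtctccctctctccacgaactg
Ogn: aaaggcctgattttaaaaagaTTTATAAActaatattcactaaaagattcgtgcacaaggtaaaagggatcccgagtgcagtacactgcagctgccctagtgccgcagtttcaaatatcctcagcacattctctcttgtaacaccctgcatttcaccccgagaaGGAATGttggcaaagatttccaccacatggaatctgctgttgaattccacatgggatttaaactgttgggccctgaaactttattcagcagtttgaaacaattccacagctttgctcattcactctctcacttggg
Aspn: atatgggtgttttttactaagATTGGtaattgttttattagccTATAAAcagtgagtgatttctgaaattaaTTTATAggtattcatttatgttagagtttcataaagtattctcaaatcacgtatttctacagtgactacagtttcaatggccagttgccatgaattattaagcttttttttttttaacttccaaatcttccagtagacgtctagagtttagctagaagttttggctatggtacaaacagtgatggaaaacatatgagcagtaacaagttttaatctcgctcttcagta
Prelp: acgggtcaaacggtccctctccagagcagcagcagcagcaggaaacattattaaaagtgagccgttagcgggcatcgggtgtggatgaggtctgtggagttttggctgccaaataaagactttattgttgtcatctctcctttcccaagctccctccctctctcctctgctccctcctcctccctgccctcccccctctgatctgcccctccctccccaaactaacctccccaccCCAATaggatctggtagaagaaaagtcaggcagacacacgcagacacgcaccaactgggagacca

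RefSeq windows were at hand for 6 of the 8 members, Bgn, Ogn, Aspn, Prelp, Fmod and Podn. The Bgn window had a GC content of 63.7% and held 3 matches to the GC box, a pair of which overlap. Of 2 windows for Podn, 1 held 2 GC boxes. The GC box was found in 35.7% of the 32851 windows of all genes. The Aspn window had a GC content of 31%. It held 2 matches to the TATA box letters and 1 to the CCAAT box. The Ogn window, with a GC content of 42.3%, held 2 overlapping matches to the TATA box letters and 1 to the TEAD element. Over all windows, the TATA box letters were found in 13.6% and the TEAD element in 14.7%. The Prelp and Fmod windows each held 1 CCAAT box, found in 37.4% of all windows. The AP-1 element, present in 7.81% of all windows, was not among the letters of these members' windows. No motif was shared by Bgn, Ogn, Aspn and Prelp. A match is a run of letters and not a measured binding site.

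Expression was deposited as RPKM, reads per kilobase of transcript and per unit of mapped reads, so levels of different genes can be set side by side. The depth, estimated from the steps of low RPKM values, was 2520000 to 2720000 reads per line, and 1 read of a transcript of the length of Lum was worth 0.177 RPKM in the wt line. Pearson's r of log2(RPKM + 1) across 10052 genes was 0.971 to 0.975 between T120D lines and 0.915 to 0.926 between a T120D line and wt. Genes at least 2-fold apart numbered 128 to 142 between line 6 and the other T120D lines and 101 to 107 among those other lines, and line 6 was also nearest to wt. The wt line has no replicate, so every comparison sets 1 wt line against the spread of 4 T120D lines. In bulk RNA, fewer cells that express a gene and less of its RNA per cell cannot be told apart.

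Biglycan dominated the family in every line. Bgn was at 532, 516, 519 and 421 RPKM in T120D lines 3, 6, 15 and 18, against 631 RPKM in wt. Line 18 was the lowest, the other 3 T120D lines lay close together, and all 4 were below wt. Bgn made up 93.4% to 96.5% of the summed RPKM of the 8 genes in the T120D lines, against 91.6% in wt.

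The next gene, Dcn, was far below Bgn in level per length. It was at 12.4, 24.5, 12.7 and 11.7 RPKM in T120D lines 3, 6, 15 and 18, against 35.2 RPKM in wt. Line 6 stood above the other 3 T120D lines, which were nearly equal, and all 4 were below wt. The ratio of Bgn to Dcn was 21.1 in T120D line 6 and 36.0 to 43.0 in the other T120D lines, against 17.9 in wt.

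Prelp, whose product anchors basement membranes to collagen, was at 2.42, 6.66, 3.23 and 2.42 RPKM in T120D lines 3, 6, 15 and 18, against 9.47 RPKM in wt. As for Dcn, line 6 was the highest T120D line and the groups did not overlap. Ogn was at 4.20, 5.09, 4.29 and 5.08 RPKM in the T120D lines in the same order, against 7.65 RPKM in wt. Here lines 6 and 18 were equal and a little above lines 3 and 15. By transcript length, these Ogn values are an estimated 27, 35, 29 and 34 reads in T120D lines 3, 6, 15 and 18. Counting error can cover a gap of this size. In wt and in line 6 the order of the leading members was Bgn, Dcn, Prelp and Ogn, while in lines 3, 15 and 18 Ogn was above Prelp. Prelp was at an estimated 22, 65, 31 and 23 reads in T120D lines 3, 6, 15 and 18. The order of Ogn and Prelp in line 15 is therefore uncertain. In T120D, Prelp (3.68 ± 2.02 RPKM) and Ogn (4.67 ± 0.485 RPKM; SD, n = 4) overlapped in range, and Dcn (15.3 ± 6.12 RPKM) lay above both in every line.

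Lum and Aspn were expressed at few reads, and mostly in wt. Lum was listed at 0, 0.178, 0.362 and 0.183 RPKM in T120D lines 3, 6, 15 and 18, against 3.89 RPKM in wt. In steps of the value of 1 read this is 0, 1, 2 and 1 reads in the T120D lines against 22 reads in wt. Per depth, the 4 T120D lines together were at 0.0471 of the wt level, with an exact 95% interval of 0.0118 to 0.139 that covers counting error only. Aspn was at 0.169, 0.158, 0.160 and 0 RPKM in T120D lines 3, 6, 15 and 18, against 1.25 RPKM in wt, or 1, 1, 1 and 0 reads against 8 reads. The same ratio was 0.0971 for Aspn, with an exact 95% interval of 0.0166 to 0.404. Both intervals compare the libraries and say nothing of the spread between wt cultures.

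The remaining members were at the limit of the depth. Fmod was at 1 read in T120D lines 3 and 15 and at 0 in lines 6 and 18, against 2 reads in wt (0.257 RPKM), which is no detectable difference at this depth. Podn was listed at 0 in all 5 lines. For a transcript of its annotated length, 1 read would have been 0.116 to 0.125 RPKM.

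**Figure D1:**
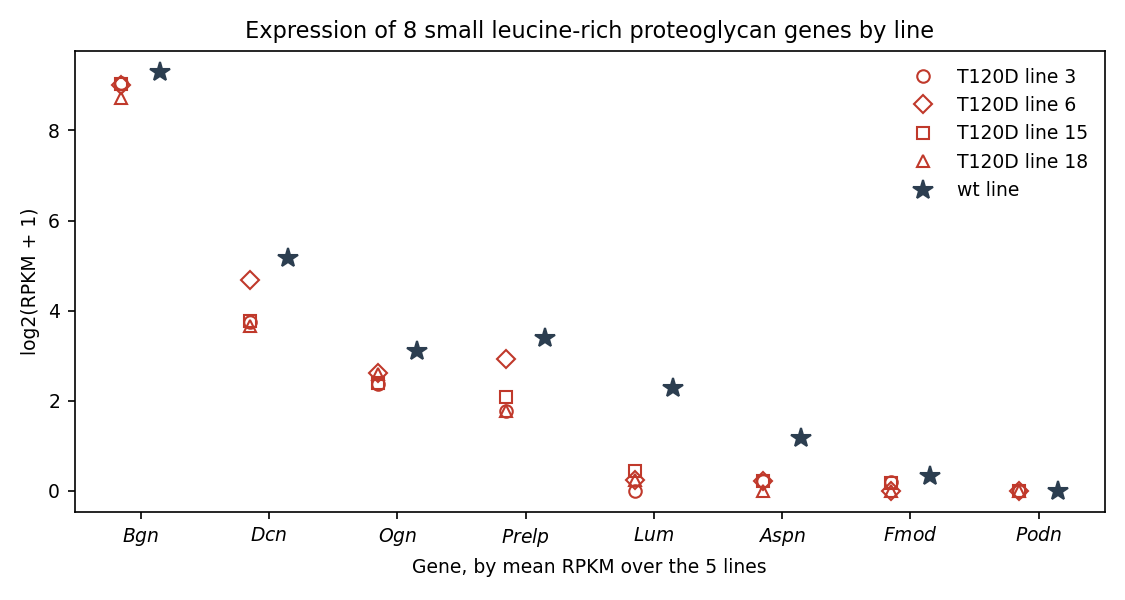
Expression of the 8 genes in each line, as log2(RPKM + 1) on the vertical axis, ordered by mean RPKM. Open red symbols are the 4 T120D lines and the star to their right is the wt line, which lies above all T120D symbols for every gene except Podn, listed at 0 throughout.

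Every member above 0 in any line, 7 of 7, had all 4 T120D lines below wt. Among all genes above 0 in any line this held for 30% of 13826 genes, and among the tested genes for 32.3%. The lines share this order for many genes, so the count of members is a description.

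In the test across genes, Dcn was the only member called lower. The test was limma on log2(RPKM + 1), for genes whose mean RPKM over all lines reached 1, with calls at a Benjamini-Hochberg adjusted p under 0.05. Of the 8 members, 4 passed this filter and were tested, Dcn, Bgn, Ogn and Prelp. Of these, 1 was called lower and 0 higher in T120D, beside 5.45% called lower and 7.65% called higher among the 10052 tested genes. The median log2 difference of the 4 tested members was -0.91, against -0.02 over all tested genes.

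The log2 difference of Dcn, T120D minus wt, was -1.21 (SE 0.33, 95% confidence interval -1.96 to -0.47, limma adjusted p = 0.043). The T120D mean was 0.435 times the wt level. The call ended without line 3, 15 or 18 (limma adjusted p = 0.0822, 0.0675 and 0.0791), without an intensity trend (0.0978) and without the filter on low values (0.24). Without line 6, the difference was -1.45 with a limma adjusted p of 0.000601.

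Prelp had a difference as large as Dcn and was not called. Its log2 difference was -1.25 (SE 0.40, 95% confidence interval -2.15 to -0.34, limma adjusted p = 0.0749), with all 4 T120D lines below wt. Line 6 was at 70.4% of the wt level and the other T120D lines at 25.5% to 34.1%. Without line 6, Prelp was called lower (log2 difference -1.51, limma adjusted p = 0.00503), so that 2 of the 4 tested members were then called lower, beside 5.83% of all tested genes.

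Ogn and Bgn had smaller differences with intervals below 0 but did not pass the adjustment. Ogn was at 0.61 times the wt level (log2 difference -0.61, SE 0.19, 95% confidence interval -1.05 to -0.18, limma adjusted p = 0.0682). Bgn was at 0.787 times the wt level (log2 difference -0.35, SE 0.12, 95% confidence interval -0.63 to -0.07, limma adjusted p = 0.0957). Neither gene was called under any of the 10 alternative settings. An exact permutation of 1 line against 4 cannot give a one-sided p under 0.2, so no single gene can be tested that way here.

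Lum and Aspn missed the filter, with means over the 5 lines of 0.922 and 0.347 RPKM. When all 14454 listed genes were fitted without it, both were called lower (limma log2 differences of -2.06 and -1.01, adjusted p = 0.013 and 0.0219), beside 4.12% of genes called lower in that fit, while Dcn was not. The T120D values behind both calls are 0 to 2 reads, and adding 1 to the RPKM compresses their spread.

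**Figure D2:**
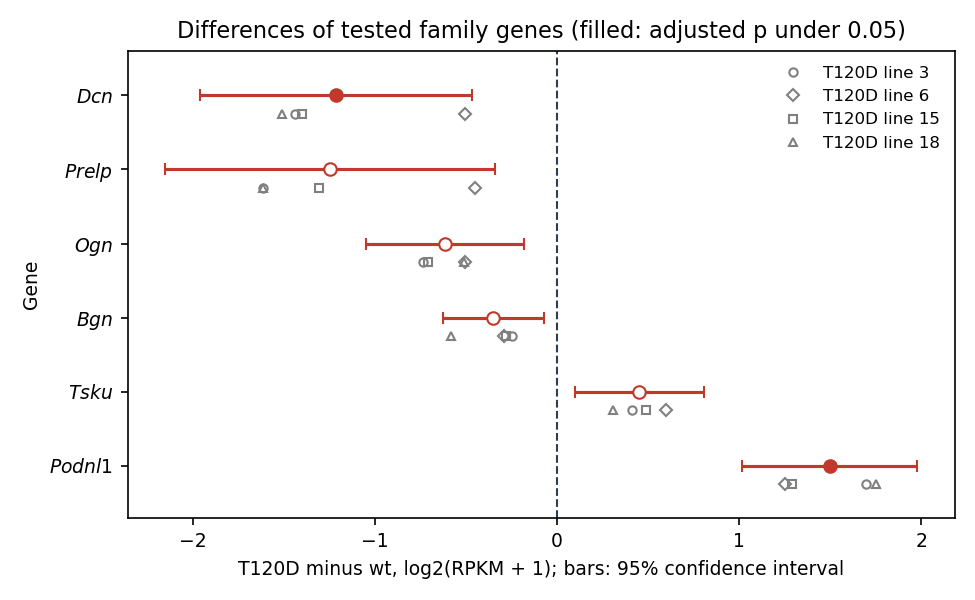
Differences in log2(RPKM + 1), T120D minus wt, of the tested members and of the tested relatives Tsku and Podnl1. Red circles with bars are the limma estimates with 95% confidence intervals, filled where the adjusted p was under 0.05 (Dcn and Podnl1), and grey symbols below them are the single T120D lines, with line 6 nearest to 0 for Dcn and Prelp.

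The members varied among the T120D lines to different degrees. The coefficient of variation of RPKM over the 4 lines was 10.3% for Bgn, 10.4% for Ogn, 40.0% for Dcn and 54.9% for Prelp. On the log2(RPKM + 1) scale, the SD of Dcn was 0.47 and that of Prelp 0.55, above those of 96.7% and 98.1% of all tested genes. The SDs of Bgn (0.16) and Ogn (0.12) were near or below the median of 0.17 over all tested genes. In both of the variable genes line 6 was the highest T120D line. Dcn was at 69.5% of wt in line 6 and at 33.2% to 36.1% in lines 3, 15 and 18. Ogn and Bgn did not set line 6 apart. Ogn was at 66.5% of wt in line 6 and 66.4% in line 18, and Bgn at 81.7% in line 6 and 66.7% in line 18. Line 6 did not stand above the others for Lum, at 1 read.

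**Figure D3:**
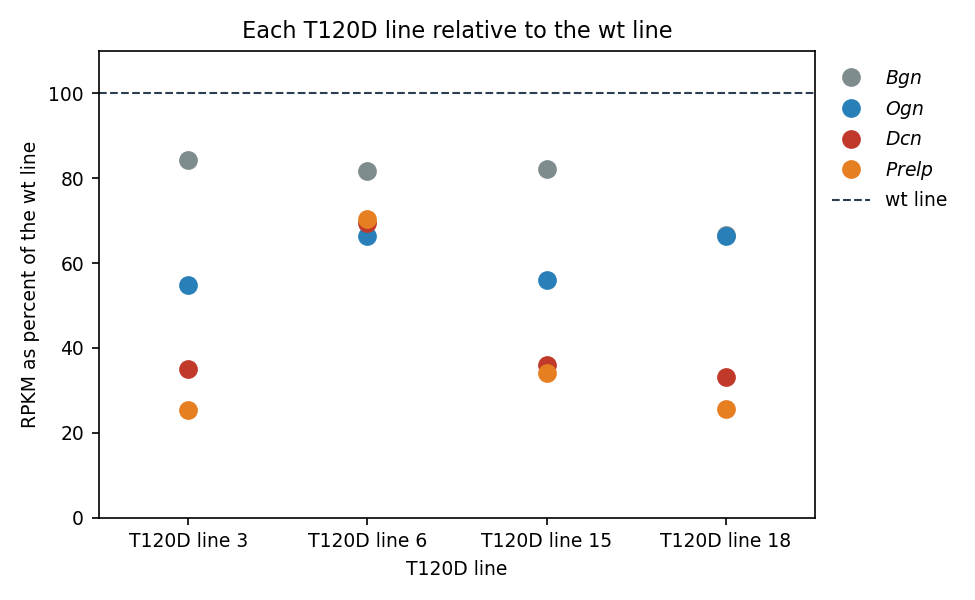
RPKM of the 4 tested members in each T120D line as a percentage of the wt line, which is the dashed line at 100. Dcn and Prelp sit at 25.5% to 36.1% in lines 3, 15 and 18 and near 70% in line 6, while Bgn and Ogn sit at 54.9% to 84.2% in every T120D line.

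The genes outside the family list whose profile over the 5 lines was nearest to that of a member differed between members. All members were left out of this ranking, so Prelp, whose levels by line resembled those of Dcn, could not appear in it. The measure was the Euclidean distance between log2(RPKM + 1) profiles centred on their means, and it describes 5 lines only. Nearest to Dcn were Pcdhga1 (distance 0.20), Ifi202b (0.26) and Gm14308 (0.26). Ifi202b, a member of the interferon-inducible p200 family, was at 10.1, 18.1, 10.9 and 11.2 RPKM in T120D lines 3, 6, 15 and 18, against 28.8 RPKM in wt, and so also had its highest T120D value in line 6. Pcdhga1 and Ifi202b come from gene families of high similarity that can share reads, so their values are uncertain. Nearest to Bgn were Otud1 (0.06), Sox12 (0.07) and Lnpep (0.07), and nearest to Ogn were Ccni (0.06), Arhgap12 (0.08) and Nbr1 (0.08).

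Genes next to each other did not share a level. On chromosome 10, Dcn and its neighbour Lum differed in level per length by far, yet in both all T120D lines were below wt. Btg1, a gene that restrains proliferation and the nearest listed gene on the other side of Dcn, also fell (log2 difference -0.74, limma adjusted p = 0.014), while Atp2b1, a calcium pump gene next to Lum, was at -0.04 (limma adjusted p = 0.883). Both neighbours were named after their values were seen. On chromosome 1, Prelp was detected at several RPKM, but its neighbours Fmod and Optc had at most 0.257 RPKM in any line. On chromosome 13, Aspn and Ogn were lower in every T120D line than in wt. Omd, which lies between them and encodes osteomodulin, had 0, 3, 1 and 1 reads in T120D lines 3, 6, 15 and 18 against 0 in wt, and Ecm2 had 1, 0, 2 and 2 reads against 0. These counts are too small to show a difference.

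The wider surroundings of the members gave no common direction. Among the 20 tested genes nearest to a member (10 on each side), the median log2 difference was 0.03 around Dcn, -0.19 around Bgn, -0.09 around Lum, 0.19 around Ogn and around Aspn, -0.13 around Prelp, -0.15 around Fmod and -0.37 around Podn. Among all tested genes, 5.45% were called lower and 7.65% higher, and the counts that follow stand beside these shares. Of the 20 genes, 1 was called lower and 3 higher around Dcn, 0 lower and 1 higher around Bgn, and 2 lower and 3 higher around Lum. Around Ogn and around Aspn, whose windows share genes, 0 were lower and 2 higher. There were 3 lower and 2 higher around Prelp, 3 lower and 1 higher around Fmod, and 4 lower and 1 higher around Podn. The windows of Dcn and Lum, and those of Prelp and Fmod, also share genes. Tested members were counted in the windows of their neighbours. Dcn was thus 1 of the 2 lower genes around Lum, while Prelp (around Fmod) and Ogn (around Aspn) were not called. Aspn and Ogn lie within the span of Cenpp, a centromere protein gene on the opposite strand, and an exon of Cenpp overlaps Aspn. Cenpp was at 1.71 ± 0.985 RPKM in T120D (SD, n = 4) and 1.04 in wt, and whether the counting used strand is not stated, so the few reads of Aspn are uncertain.

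**Figure D4:**
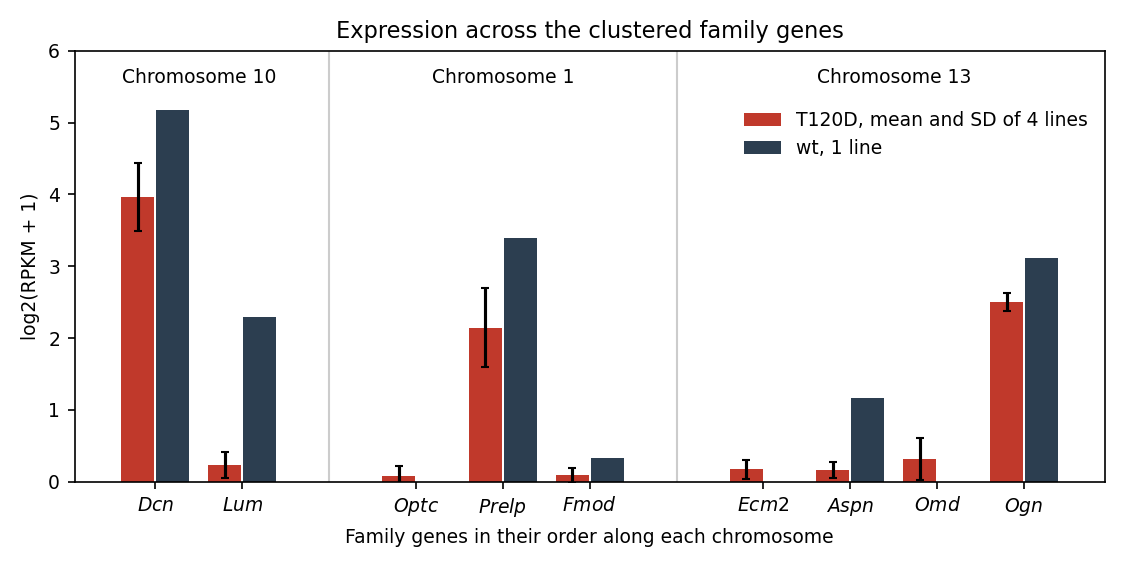
Expression, as log2(RPKM + 1), of family genes in their order along chromosomes 10, 1 and 13. Red bars are means of 4 T120D lines with SD and dark bars the wt line. Dcn, Lum, Prelp, Aspn and Ogn have the lower bar in T120D, and the other genes are at or near 0.

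Among relatives outside the 8 genes, 1 was called higher. Of 10 listed, 8 had values and 2 were tested, of which 1 was called higher and 0 lower. Among all tested genes, 7.65% were called higher and 5.45% lower. Podnl1, which encodes a podocan-like protein, was the called gene. It was at 22.8, 16.5, 17.0 and 23.7 RPKM in T120D lines 3, 6, 15 and 18, against 6.35 RPKM in wt. All 4 lines were above wt, with lines 6 and 15 the lower pair. Its log2 difference was 1.50 (SE 0.21, 95% confidence interval 1.02 to 1.98, limma adjusted p = 0.0027), and it was no longer called once the filter was dropped (0.0596). The other tested relative, Tsku, named after its values were seen, encodes the secreted signalling modulator tsukushi. It averaged 14.0 ± 1.28 RPKM in T120D (SD, n = 4) and 9.90 in wt, a difference of 0.45 in log2 that was not called (limma adjusted p = 0.0922). Of the other relatives, Omd, Optc, Chad, Ecm2, Chadl and Nyx, none exceeded 0.633 RPKM in a line, and Nyx was at 0 in all lines. Podnl1 was thus the most abundant relative after Bgn in lines 3, 15 and 18, above Dcn, whereas in line 6 and in wt Dcn was above Podnl1.

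Enzymes that build the sugar chains of these proteins gave 1 call. Of 22 listed genes for the linker and for chondroitin and dermatan sulfate, 17 were tested, 0 were higher and 1 was lower. Among all tested genes, 7.65% were called higher and 5.45% lower, so 1 call does not set the list apart. The median log2 difference was -0.14 beside -0.02 over all tested genes. The lower gene was Csgalnact1, which starts the chondroitin chain, at 2.81 ± 0.622 RPKM in T120D (SD, n = 4) and 6.22 in wt (difference -0.94 in log2, limma adjusted p = 0.0368). Its call ended without line 3, 6 or 18 (limma adjusted p = 0.0675, 0.0543 and 0.0673) and without the filter (0.121). Chpf, a chondroitin polymerising factor gene and the most abundant of the list, was at 20.8 ± 1.34 RPKM in T120D and 18.4 in wt and was not called (limma adjusted p = 0.466). Of 7 keratan sulfate genes, 3 were tested and 0 called. B4galt1, a galactosyltransferase gene, was at 10.6 ± 0.198 RPKM in T120D and 14.2 in wt (limma adjusted p = 0.104), and was called without the filter (0.027).

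Among collagens that the family binds, the calls were all downward. Of 12 listed collagen genes, 10 were tested, 5 were lower and 0 higher, with a median log2 difference of -0.51. Among all tested genes, 5.45% were called lower and 7.65% higher. Col5a2 was the only tested collagen gene with a higher mean in T120D, at 30.2 RPKM against 26.0 in wt. It was not called (limma adjusted p = 0.331). The largest differences were those of Col6a1 (-1.84), Col6a2 (-1.65) and Col3a1 (-1.52). Col3a1, which encodes the chain of collagen III, was at 15.2 ± 1.90 RPKM in T120D (SD, n = 4) and 45.2 in wt (limma adjusted p = 0.000786). Col1a2, the most abundant, was at 246 ± 19.7 RPKM in T120D and 334 in wt (difference -0.45 in log2, limma adjusted p = 0.0253). The call of Col1a2 ended without line 3 or 18 (limma adjusted p = 0.0568 and 0.0542), without a trend (0.136) and without the filter (0.13). Of 5 lysyl oxidase genes, whose products cross-link collagen, 4 were tested. Loxl4 rose (10.2 ± 0.942 RPKM in T120D and 3.98 in wt, a rise of 1.16 in log2, limma adjusted p = 0.00341), and Lox, the most abundant, was at 348 ± 25.0 RPKM in T120D and 355 in wt (limma adjusted p = 0.863).

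Genes for ligands that the family binds were called in both directions. Of 7 listed growth factor genes, 5 were tested, 2 were lower and 1 higher. Among all tested genes, 5.45% were called lower and 7.65% higher. Tgfb3 fell to 5.58 ± 0.271 RPKM in T120D (SD, n = 4), against 13.2 RPKM in wt, a log2 difference of -1.11 (limma adjusted p = 0.00355). Tgfb2 fell to 1.26 ± 0.323 RPKM in T120D, against 5.36 RPKM in wt (-1.50, limma adjusted p = 0.00875), and Ctgf, the matricellular factor that decorin binds, had a log2 difference of 3.64. The other 2 tested ligand genes were not called.

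Genes for receptors of these proteins gave 1 call in each direction. Of 9 listed, 7 were tested, 1 was higher and 1 lower, beside 7.65% called higher and 5.45% called lower among all tested genes. The other 5 were not called. Met, the receptor tyrosine kinase that decorin binds, was at 15.6 ± 0.86 RPKM in T120D (SD, n = 4) and 8.55 in wt (difference 0.80 in log2, limma adjusted p = 0.00782). Tlr2, a receptor through which soluble biglycan signals in macrophages, was at 1.60 ± 0.0996 RPKM in T120D and 4.75 in wt (-1.15, limma adjusted p = 0.0127). Lrp1, an endocytic receptor of decorin and the most abundant receptor listed, was at 54.2 ± 1.76 RPKM in T120D and 47.9 in wt and was not called (limma adjusted p = 0.298).

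Genes for processing and for other proteoglycans were called in both directions. The share of all tested genes called in either direction was 13.1%. Of 13 genes for processing, 8 were tested, 1 was higher and 1 lower. Adamts1, a secreted protease gene, was at 22.6 ± 1.30 RPKM in T120D (SD, n = 4) and 14.5 in wt (difference 0.61 in log2, limma adjusted p = 0.0179, and 0.0572 without a trend). Pcolce, an enhancer of procollagen processing, was at 75.4 ± 6.85 RPKM in T120D and 107 in wt (-0.50, limma adjusted p = 0.0295). The call of Pcolce ended without line 3 (limma adjusted p = 0.0639), without a trend (0.115) and without the filter (0.125). Mmp2, the most abundant protease gene listed, was not called (limma adjusted p = 0.205). Of 24 other proteoglycan genes, 11 were tested, 1 was higher and 1 lower. Cspg4, a transmembrane proteoglycan gene, was at 13.7 ± 2.18 RPKM in T120D and 7.29 in wt (0.81, limma adjusted p = 0.0278). Its call ended without line 3 or 15 (0.054 and 0.0502), without a trend (0.0649) and without the filter (0.131). Vcan, which encodes the large proteoglycan versican, was at 65.8 ± 3.60 RPKM in T120D and 95.6 in wt (-0.53, limma adjusted p = 0.0124, and 0.076 without a trend). In a line-by-line view, Bgn exceeded the summed RPKM of all 17 other proteoglycan genes with values, at 243 to 277 in T120D and 306 in wt.

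**Figure D5:**
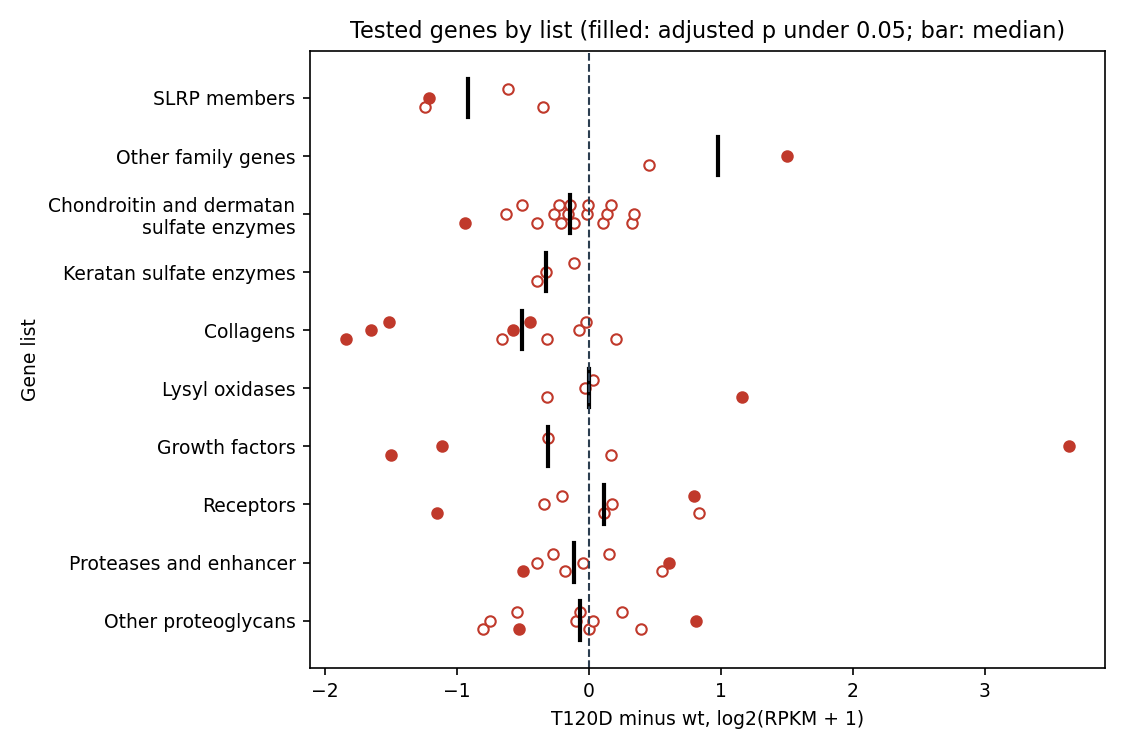
Differences in log2(RPKM + 1), T120D minus wt, of every tested gene in the members and the 9 related lists. Each circle is 1 gene, filled where the limma adjusted p was under 0.05, and black bars are list medians, which run from -0.91 for the members to 0.98 for the 2 other tested family genes.

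The cells carried fibroblast markers in every line. All 8 fibroblast markers were tested, with a summed level of 2304 to 2664 RPKM in T120D and 3025 RPKM in wt. Of these, 1 was higher and 5 were lower in T120D, beside 7.65% called higher and 5.45% called lower among all tested genes. Pdgfra, a fibroblast receptor gene, was at 12.7 ± 1.72 RPKM in T120D (SD, n = 4) and 43.5 in wt (limma adjusted p = 0.000444), and Thy1, a surface antigen gene, was at 55.0 ± 7.26 RPKM in T120D and 20.3 in wt (limma adjusted p = 0.000911). Both were named after their values were seen. The part of this shift in the values of the members was not tested.

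Markers of macrophages, endothelium and epithelium were low. Summed levels were 0.373 to 1.95 RPKM in T120D and 1.80 in wt for 4 macrophage markers with values, 0.0926 to 0.471 in T120D and 0 in wt for 3 endothelial markers, and 0.226 to 0.657 in T120D and 0.470 in wt for 3 epithelial markers. Aif1, Pecam1 and Tek were at 0 in all lines, and none of these lists had a tested gene. Tendon, cartilage and bone markers were uneven. Scx, Col2a1, Comp and Sp7 did not exceed 0.348 RPKM in any line. Sox9, Runx2 (8.25 RPKM on average in T120D and 9.25 in wt) and Mkx (3.25 and 3.21) made up nearly all of the sum. Of 7 with values, 3 were tested and 1, the chondrogenic factor gene Sox9 (named after its values were seen), was lower, at 13.3 ± 1.38 RPKM in T120D (SD, n = 4) and 30.8 in wt (limma adjusted p = 0.00221). The sum of this list was 23.6 to 26.3 RPKM in T120D and 43.7 in wt. Its part in the values of the members was not tested.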

How the data were processed

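The authors deposited 1 table of RPKM values per line, per the file headers. The submitters' processing notes name Partek and mouse build mm9. No source used here gives the aligner, the annotation or the handling of strand. Libraries were made from total RNA with a stranded mRNA kit, per the labels' protocols. The members and the gene lists were chosen with earlier results of these data known.

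From the RPKM values, log2(RPKM + 1) was computed and genes whose mean reached 1 RPKM were tested, T120D mean minus wt, with limma 3.58.1 (R 4.3.3; two-sided, empirical Bayes with a trend, Benjamini-Hochberg over 10052 genes, calls at an adjusted p under 0.05). The single wt line was assumed to vary like the T120D lines, and p-values measure the spread between these lines, which may be technical. Depth was estimated as the number of reads that brings most low values of 1348 single-transcript genes within 0.05 reads of a whole number (47.4% to 54.5% of values, where chance gives 10%). Read numbers of Lum, Aspn, Fmod, Omd and Ecm2 come from the steps of their values, and those of Ogn and Prelp from the transcript length. Both procedures were tested on simulated data. The limma fit recovered 43% of genes changed by 1 in log2 and 86% of genes changed by 2. A gene that was not called may therefore still differ. In the same simulations, 8 and 3 unchanged genes were also called, in that order. RefSeq GRCm38.p6 was used for names (13381 of 14454 symbols matched), gene order and promoters, and GENCODE for overlaps and lengths. Named were the members, and in each list up to 3 called genes per direction and the most abundant one. Also named were the 3 genes, members left out, nearest to each of the 3 most abundant members. The protein comparison planned was not run. Alternatives were the pseudocount, the filter, the trend, median and quantile scaling and each T120D line left out.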

Additional observations from a re-analysis of the deposited data

Results flagged for a closer look

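Within the T120D group, 3 of the 28 genes examined had 1 line far from the other 3 by Dixon's ratio (above its 95% critical value, which chance exceeds in about 5% of groups). Dcn was at 24.5 RPKM in T120D line 6, above the other T120D lines (ratio 0.922). Bgn was at 421 RPKM in T120D line 18, below the others (0.857). Aspn was listed at 0 in T120D line 18, against 1 read in each of the other T120D lines (0.934), a difference of 1 read.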

How the results depend on the processing

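The tested members kept their direction under the 10 alternatives; Prelp was not tested at a mean of at least 5 RPKM. Dcn, called lower in 5 of them, was not called when genes of low values were kept in (log2 difference -1.21, limma adjusted p = 0.24) or without a trend (-1.21, 0.0978). With each T120D line left out in turn its difference ran from -1.45 to -1.12, and the call held only without line 6. Prelp ran from -1.51 to -1.12 and was called only without line 6. The number of members called lower, 1 in the main test, was 2 without the filter (Lum and Aspn), 0 without a trend and 0 to 2 with a T120D line left out. Over all genes, 769 were higher and 548 lower; without the filter 415 were higher and 596 lower, so that higher genes made up 41.0% of the calls, against 58.4% with it, and without a trend 455 were higher and 361 lower. Over the related lists, 6 genes were higher and 11 lower, and 7 lower without a trend. No scaling moved the median of all genes by 0.1 or more. No paired analysis was possible because a single wt line stood against all T120D lines. Lum, Aspn and Fmod rest on 0 to 22 reads, so depth limits what they show. Ogn and Prelp rest on an estimated 22 to 93 reads per line, so small gaps between lines are uncertain.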
